A study of Homo sapiens with 24 samples.

Results

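The 10 keratin genes described here are KRT7, KRT8, KRT18, KRT19, KRT20, KRT23, KRT15, KRT80, KRT6A and KRT31. They were chosen by gene name, and every non-control probe carrying one of these names was taken. The array held 13 such probes, 1 for each gene except KRT8, KRT18 and KRT23, which had 2 each. Of the 10 genes, 9 passed the filter on dim probes and were tested among 15132 genes (18979 probes). KRT20 did not pass and is given by its values alone.

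Keratins are the intermediate filament proteins of epithelial cells. A type I (acidic) keratin pairs with a type II (neutral to basic) keratin, and the pairs assemble into filaments that are anchored at desmosomes and hemidesmosomes and give the cell its mechanical strength. KRT8 and KRT18 are the primary pair of simple epithelia such as the lining of the colon, with KRT19 and, in differentiated enterocytes, KRT20 as further type I partners. Other members are better known elsewhere: KRT7 in ductal epithelia, KRT15 in basal cells of stratified epithelia, KRT6A in wounded or hyperproliferative epidermis and KRT31 in the hair shaft. Sodium butyrate, a short-chain fatty acid made by bacteria in the colon, inhibits histone deacetylases.

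The cells were HCT-116, a human colon carcinoma line with mutant beta-catenin, in which Wnt signalling is constitutively active. All 4 groups carried the same stable vectors for the Tet repressor and for a doxycycline-inducible dominant negative Tcf4 (DN-Tcf4), which represses Wnt/Tcf transcription, so the untreated cells held the construct as well. Clones were selected from the transfected cells, and the paper describes its cells as 1 such clone. Cells were left untreated (Ctl), given 5 mM sodium butyrate (NaB), given 4 μg/ml doxycycline (Doxy) or given both (DoxyNaB), with 17.5 hr of butyrate. Each treatment was measured in 6 experiments, each with 1 array per treatment, so that the 24 one-colour arrays form 6 matched sets of 4. A level below is log2 of the processed signal of a probe relative to the 75th percentile of its array, and a change is the difference of 2 levels within an experiment, given as the fitted value ± the SD over the 6 experiments. Levels of different probes are not set against each other, and fewer expressing cells and less RNA per cell cannot be told apart in these bulk samples.

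The 75th percentile of the processed signal ranged from 380.2 to 1323 over the arrays, and 52.5% to 88.1% of spots were well above background. No keratin probe was saturated. Negative control spots were brightest on the NaB array of experiment 3 and the DoxyNaB array of experiment 2 (net signal 161.0 and 248.9, against 48.4 to 114.6 on the others). All 7 epithelial markers examined, among them EPCAM and CDH1, were well above background on all 24 arrays, and of the 6 intestinal markers CDX1 and CDX2 were. Of the 7 fibroblast markers COL1A1 alone and of the 7 leukocyte markers CD14 alone passed that flag on each of the 6 Ctl arrays, and of the 7 squamous markers none was. The summed signal of each list, as a multiple of the 75th percentile, ran in Ctl and NaB cells from 25.1 to 42.1 and 22.2 to 26.5 for the epithelial list, 0.361 to 0.534 and 0.323 to 1.24 for the fibroblast list, 0.205 to 0.479 and 0.68 to 1.09 for the leukocyte list, and 0.0922 to 0.629 and 0.607 to 1.96 for the squamous list. A spot flagged as an outlier was left out and added nothing to these sums. The lowest Ctl sum of the epithelial list and the lowest NaB sum of the fibroblast list are of arrays with such a spot. At that end the Ctl and NaB ranges of these lists cannot be compared. The part of the markers in the keratin changes was not tested.

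Tcf4 is encoded by TCF7L2, and RNA of the gene is not told apart here from RNA of the construct. None of its 3 tested probes passed in Doxy/Ctl (log2 changes 0.30, -0.17 and 0.36, adjusted p = 0.861, 0.921 and 0.618), while in DoxyNaB/NaB they changed by 4.46, 2.96 and -1.25 (adjusted p = 1.77e-06, 3.65e-05 and 0.00569). In NaB/Ctl, without doxycycline, the same probes changed by 1.90, 0.91 and -0.08 (limma adjusted p = 0.000468, 0.0294 and 0.777). AXIN2, a direct Wnt target, fell by 0.58 in Doxy/Ctl (adjusted p = 0.0029) and by 2.53 in DoxyNaB/NaB.

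Positions below are on build NCBI36 of the human genome, as the array's annotation gives them. Of the 10 genes, 5 lie on chromosome 12 and 5 on chromosome 17. All 4 type II members (KRT7, KRT8, KRT80 and KRT6A) are on chromosome 12 and 5 of the 6 type I members on chromosome 17. The exception is KRT18, the type I gene that lies beside its partner KRT8 in the type II cluster. Its probes map to chr12:51631844-51631903 and chr12:51632383-51632821 on the plus strand, and those of KRT8 to chr12:51577293-51577352 and chr12:51580728-51581262 on the minus strand. A span longer than the 60 bases of a probe means that the probe crosses at least 1 intron. The KRT23 probes map to chr17:36332488-36332547 and chr17:36335246-36335305 on the minus strand, 2698 bases apart. The first of these, nearer the 3′ end of the gene, holds the polyadenylation hexamer AATAAA from its base 52 on, and no other probe of the 10 genes holds it.

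The sequences of 4 probes are printed because results below turn on how the probes of one gene compare. They are the second probes of KRT23 and KRT8, whose changes are set beside those of the first, and the 2 probes of KRT18, which moved alike. All are 5′ to 3′ as deposited, with no part marked.
KRT23, at 36335246: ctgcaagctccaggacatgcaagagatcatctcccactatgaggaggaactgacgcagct
KRT8, at 51580728: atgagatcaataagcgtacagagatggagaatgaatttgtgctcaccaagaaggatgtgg
KRT18, at 51632383: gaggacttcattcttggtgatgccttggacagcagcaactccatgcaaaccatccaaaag
KRT18, at 51631844: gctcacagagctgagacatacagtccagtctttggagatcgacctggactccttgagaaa
The longest run that any probe of the 10 genes shared with a probe of another keratin was 10 bases (KRT18 at 51631844 with KRT6C).

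**Figure D1:**
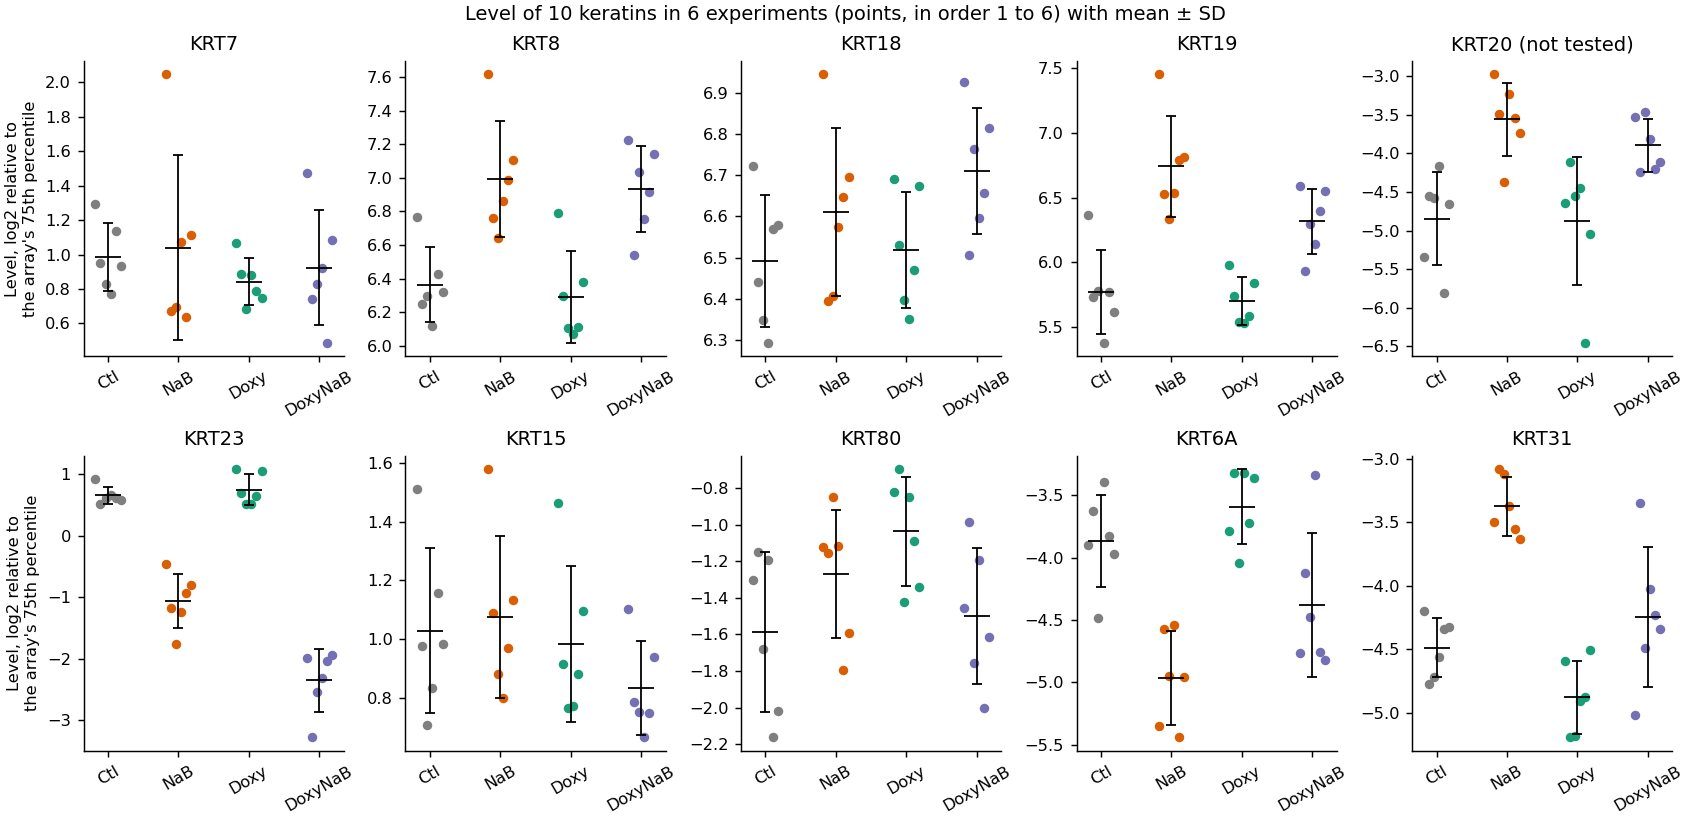
Level of each of the 10 keratins on the 24 arrays (y axis, log2 relative to the array's 75th percentile; a different range in each panel), by treatment (x axis). Points are experiments 1 to 6 from left to right and black bars the mean ± SD (n = 6); the KRT23 levels of NaB and DoxyNaB cells lie below all Ctl and Doxy levels, and experiment 1 is the highest in all 4 treatments for KRT7, KRT8, KRT18, KRT19 and KRT15.

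The first comparison asks which keratins butyrate changed in cells not given doxycycline. In NaB/Ctl, KRT23 fell 3.28-fold and KRT31 rose 2.16-fold. KRT6A was 2.15-fold lower, but its probe was well above background on 1 of the 6 NaB arrays and on all 6 Ctl arrays, so it was tested because of its level in cells without butyrate. KRT8 and KRT19 rose by 1.55-fold and 1.96-fold, past the p threshold but short of 2-fold. No change passed for KRT7, KRT15, KRT18 or KRT80. With the study's thresholds (fold over 2, here with a Benjamini-Hochberg adjusted p under 0.01 from limma), 1 of the 9 tested keratins was higher and 2, KRT6A included, were lower, against 20.9% of all genes higher and 11.5% lower. At an adjusted p under 0.01 and any fold, 3 were higher and 2 lower, against 40.6% and 29% of all genes. The median change of the 9 was 0.12 and that of all genes 0.17.

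KRT23 is a type I keratin that the array's annotation calls histone deacetylase inducible. Its level in Ctl cells ran from 0.51 over a median of 0.62 to 0.92, and in NaB cells from -1.76 over -1.05 to -0.45. Doxy cells ran from 0.51 over 0.66 to 1.08, and DoxyNaB cells from -3.27 over -2.17 to -1.93. The butyrate-treated cells lay below the untreated cells with no overlap on either background, the Ctl and Doxy levels overlapped, and every DoxyNaB level lay below every NaB level. The change was -1.71 ± 0.38 in NaB/Ctl (adjusted p = 8.64e-09, lower in 6 of 6 experiments) and -3.09 ± 0.45 in DoxyNaB/Doxy (an 8.52-fold fall, adjusted p = 2.6e-12, lower in 6 of 6). It was also called with each of the other scalings and with each experiment left out. Within the scan date shared by experiments 2 to 4 the changes were -1.98 and -3.28, and within that of experiments 5 and 6 -1.47 and -2.82. On 1 of the 6 DoxyNaB arrays the probe was not well above background.

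The second KRT23 probe, on the 5′ side of the first, moved the same way by less. Its level ran from -0.44 to 0.04 in Ctl, from -2.14 to -0.92 in NaB, from -0.37 to 0.17 in Doxy and from -2.90 to -0.97 in DoxyNaB cells. The change was -1.23 ± 0.29 in NaB/Ctl (adjusted p = 0.000103) and -2.19 ± 0.76 in DoxyNaB/Doxy (adjusted p = 9.96e-08), with all 6 experiments lower in both. The widest spread was in DoxyNaB cells, where experiment 2 was the highest of the 6 at this probe and the lowest at the other. That array is the one with the brightest negative controls, whose part in the difference was not tested.

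KRT6A was dim throughout. Its level ran from -4.48 over -3.86 to -3.39 in Ctl cells and from -5.44 over -4.95 to -4.54 in NaB cells, with no overlap. All 6 Ctl and all 6 Doxy arrays measured the probe well above background, and 1 NaB and 3 DoxyNaB arrays did, so that the level under butyrate rests on few measurements above background. The change was -1.10 ± 0.41 (adjusted p = 2.83e-06, lower in 6 of 6). It was -0.53 with normexp background correction (adjusted p = 0.0745) and was larger with quantile normalization (-1.87) and with median scaling (-1.85). Without experiment 5 it was -0.999, under 2-fold, and it was -0.85 within experiments 2 to 4 and -1.30 within experiments 5 and 6. In DoxyNaB/Doxy it changed by -0.79 ± 0.50 (adjusted p = 0.000127), short of 2-fold, and with normexp the value was 0.20, of the other sign.

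KRT31, also dim, was the 1 keratin of the 10 called higher. Its level ran from -4.78 over -4.45 to -4.20 in Ctl cells and from -3.63 over -3.43 to -3.08 in NaB cells, with no overlap, and all 12 arrays measured its probe well above background. The change was 1.11 ± 0.45 (adjusted p = 0.000124, higher in 6 of 6), but it was 0.26 with normexp, 0.36 with median scaling and -0.11 with quantile normalization, where the sign turned and the call was lost (adjusted p = 0.454, 0.072 and 0.587). Without experiment 2 it was 0.996, just under 2-fold, and it was 1.496 within experiments 2 to 4 and 0.74 within experiments 5 and 6. In DoxyNaB/Doxy the change was 0.64 ± 0.76 (adjusted p = 0.0118, higher in 5 of 6), and the levels of the Doxy (-5.19 to -4.51) and DoxyNaB cells (-5.02 to -3.35) overlapped.

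**Figure D2:**
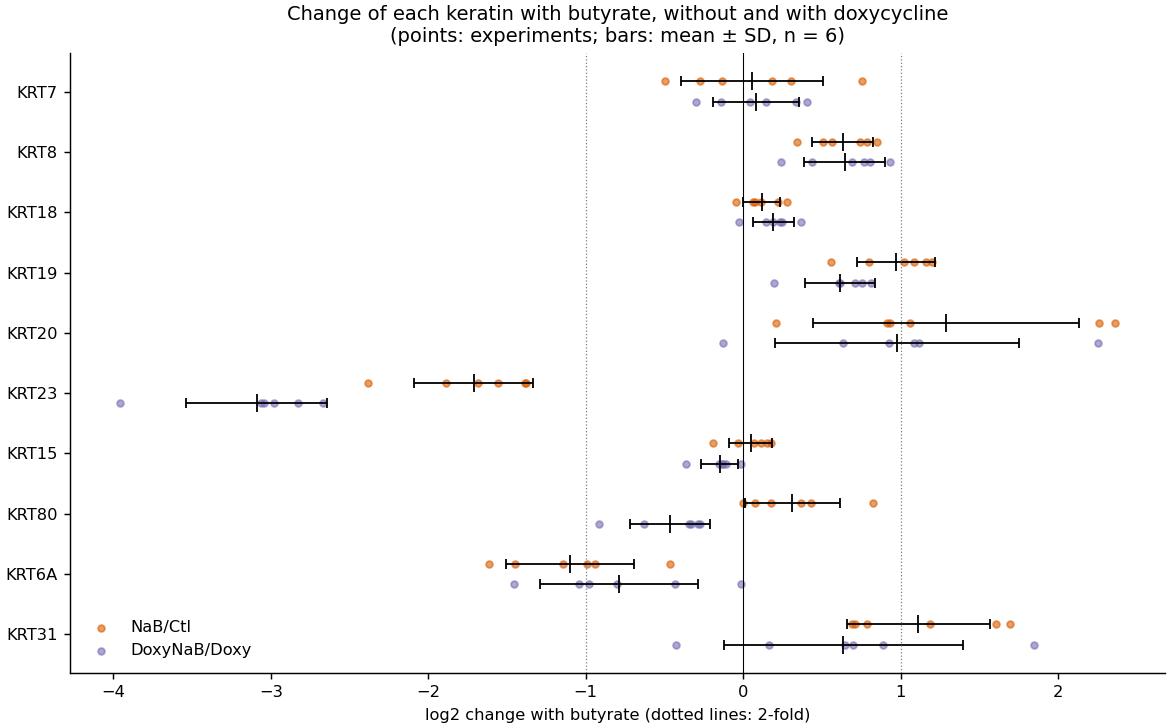
log2 change of each keratin with butyrate (x axis) in NaB/Ctl (orange) and DoxyNaB/Doxy (purple), with 1 point per experiment and black bars for the mean ± SD (n = 6); dotted lines mark 2-fold. The KRT23 points all lie at -1.38 or lower, the KRT8 and KRT19 points all lie above 0, and KRT80 lies to the right of 0 on average without doxycycline (0.31) and to the left with it (-0.46).

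Among the keratins of simple epithelia, KRT8 and KRT19 were higher with butyrate in every experiment. The KRT8 level ran from 6.12 over 6.31 to 6.77 in Ctl cells and from 6.64 over 6.93 to 7.62 in NaB cells, and from 6.07 over 6.21 to 6.79 in Doxy and 6.54 over 6.98 to 7.23 in DoxyNaB cells. Of the cells without butyrate, experiment 1 alone reached into the butyrate ranges, and within experiments KRT8 was higher with butyrate in 6 of 6 in both comparisons. The change was 0.63 ± 0.19 in NaB/Ctl (adjusted p = 3.43e-06) and 0.64 ± 0.26 in DoxyNaB/Doxy (adjusted p = 2.81e-06), and was -0.12 and 0.09 with median scaling.

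KRT19, the smallest type I keratin, ran from 5.38 over 5.75 to 6.36 in Ctl cells and from 6.34 over 6.67 to 7.45 in NaB cells. It ran from 5.53 over 5.66 to 5.98 in Doxy cells and from 5.93 over 6.35 to 6.59 in DoxyNaB cells. Again experiment 1 alone, in Ctl and in Doxy cells, reached into the butyrate range. The change was 0.97 ± 0.25 in NaB/Ctl (adjusted p = 1.38e-07) and 0.61 ± 0.22 in DoxyNaB/Doxy (adjusted p = 3.75e-05), with 6 of 6 experiments higher in both. It passed 2-fold in NaB/Ctl with normexp (1.04), and was 0.22 with median scaling.

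KRT18, the partner of KRT8, ran from 6.29 over 6.51 to 6.72 in Ctl cells and from 6.40 over 6.61 to 6.95 in NaB cells, and the groups overlapped. Its change was 0.12 ± 0.12 in NaB/Ctl (adjusted p = 0.0857) and 0.19 ± 0.13 in DoxyNaB/Doxy (adjusted p = 0.00854), with 5 of 6 experiments higher in both. Its second probe gave 0.10 and 0.23 (adjusted p = 0.27 and 0.0125). With median scaling the KRT18 change was -0.63 and -0.37.

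The 75th percentile and the median differ by a constant on each array, while normexp and quantile normalization move genes by unequal amounts. The same changes are therefore given relative to the median gene. That median in NaB/Ctl was 0.17 here, 0.08 with normexp, -0.06 with quantile normalization and -0.59 with median scaling, and the genes called higher were 3170 of 4904, 1377 of 2561, 2068 of 4502 and 1350 of 6277, respectively. In DoxyNaB/Doxy they were 2823 of 4709, 1805 of 3081, 2027 of 4489 and 1454 of 5631. Relative to the median gene, KRT8 changed in NaB/Ctl by 0.47, 0.71, 0.66 and 0.47 in the same order, KRT19 by 0.80, 0.96, 1.04 and 0.81, and KRT18 by -0.05, 0.16, 0.20 and -0.05. KRT31 changed by 0.95, 0.17, -0.04 and 0.95, and KRT23 by -1.88, -1.53, -2.04 and -1.88.

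**Figure D3:**
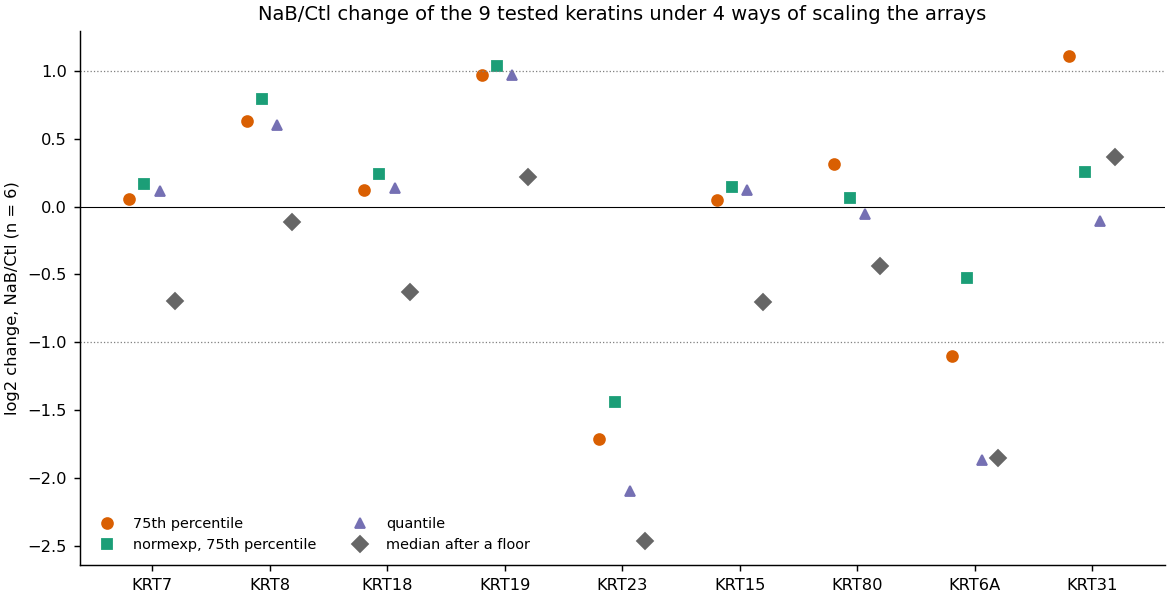
Fitted log2 change in NaB/Ctl (y axis, n = 6 experiments) of the 9 tested keratins (x axis) under 4 ways of scaling the arrays; dotted lines mark 2-fold. KRT23 lies at -1.44 or lower in all 4, KRT31 passes 2-fold with the 75th percentile alone (1.11), and every keratin has a lower value with median scaling than with the 75th percentile.

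The difference between 2 keratins on the same array is the same with the 75th percentile and the median, though not with normexp or quantile normalization, and such differences were compared over the 6 experiments for 3 pairs in both butyrate comparisons. KRT8 gained on KRT18 by 0.51 ± 0.14 in NaB/Ctl and by 0.45 ± 0.18 in DoxyNaB/Doxy. KRT19 gained on KRT18 by 0.85 ± 0.19 and by 0.42 ± 0.15. KRT19 gained on KRT8 by 0.34 ± 0.10 in NaB/Ctl, a value that was 0.25 with normexp and 0.37 with quantile normalization. All 5 of these differences had the same sign in 6 of 6 experiments (exact two-sided sign-flip permutation p = 0.03125, the smallest that 6 experiments allow; 0.0375 after Benjamini-Hochberg adjustment over the 6 comparisons). In DoxyNaB/Doxy, KRT19 and KRT8 differed in change by -0.03 ± 0.12, with 4 of 6 experiments lower (exact permutation p = 0.531).

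The second KRT8 probe, which crosses an intron, also rose in both comparisons. It ran from -1.42 over -0.76 to 1.47 in Ctl cells and from 0.07 over 0.62 to 2.04 in NaB cells. The change was 1.24 ± 0.68 in NaB/Ctl (adjusted p = 0.000506, 6 of 6 higher) and 1.09 ± 0.29 in DoxyNaB/Doxy (adjusted p = 0.00309). The SD of the latter is over 4 experiments, whose mean change was 1.16. The spots on Doxy array 4 and DoxyNaB array 1 were flagged as outliers and left out. With normexp its NaB/Ctl change was 0.78 (adjusted p = 0.0163), against 0.79 at the first probe, and with median scaling it was 0.49 (adjusted p = 0.194), so that neither its size beside the first probe nor its call held under every scaling. The SD of its level within Ctl cells was 1.14, against 0.22 for the first probe. The array's annotation also lists 2 predicted transcripts for this probe that could not be matched to a gene in the RefSeq table, and KRT8 has many processed pseudogenes. With both probes averaged, KRT8 was not called in either comparison.

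The remaining members did not pass in NaB/Ctl. KRT7 ran from 0.77 to 1.29 in Ctl and from 0.64 to 2.05 in NaB cells and changed by 0.06 ± 0.45 (adjusted p = 0.71, higher in 3 of 6). KRT15 ran from 0.71 to 1.51 and from 0.80 to 1.58, and changed by 0.05 ± 0.14 (adjusted p = 0.501). KRT80, a type II keratin found in many epithelia, ran from -2.16 to -1.15 and from -1.79 to -0.85, and changed by 0.31 ± 0.30 (adjusted p = 0.0319). All 3 had overlapping groups. With median scaling the 3 values were -0.69, -0.70 and -0.44, so that their sign depended on the scaling.

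KRT20, the differentiation-linked colonic keratin, was near background. Its probe was well above background on 2 Ctl, 5 NaB, 3 Doxy and 3 DoxyNaB arrays. Its level ran from -5.81 over -4.62 to -4.16 in Ctl cells, from -4.37 over -3.52 to -2.98 in NaB cells, from -6.45 over -4.60 to -4.11 in Doxy cells and from -4.24 over -3.97 to -3.47 in DoxyNaB cells. Both pairs of groups overlapped. Fitted without the filter, it changed by 1.29 ± 0.85 in NaB/Ctl (adjusted p = 0.00123, higher in 6 of 6) and by 0.98 ± 0.78 in DoxyNaB/Doxy (adjusted p = 0.01, higher in 5 of 6), values that rest in part on arrays where the probe was not well above background.

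The second comparison asks what butyrate did once doxycycline had been given. In DoxyNaB/Doxy, KRT23 was the 1 keratin called, lower, and none was called higher, against 12.5% of all genes lower and 18.7% higher. At any fold, KRT8, KRT18 and KRT19 were higher and KRT23, KRT80 and KRT6A lower, 3 of 9 each way, against 38.1% and 30.3% of all genes. KRT80 was lower in 6 of 6 experiments, by -0.46 ± 0.26 (adjusted p = 0.00293), and its levels ran from -1.42 to -0.70 in Doxy cells and reached -0.99 in DoxyNaB cells, with overlap. KRT15 had a lower value in 6 of 6 as well, at -0.15 ± 0.12 (adjusted p = 0.0383). KRT7 changed by 0.08 ± 0.27 (adjusted p = 0.585). The median of the 9 was 0.08, and that of all genes 0.11.

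Doxycycline alone changed no keratin past the threshold. In Doxy/Ctl, 0 of 9 passed an adjusted p under 0.01 (limma), where 0.555% of all genes did, and KRT80 alone had an unadjusted p under 0.05. The 9 changes ran from -0.39 to 0.55. KRT80 had the highest, 0.55 ± 0.29 (adjusted p = 0.0414, higher in 6 of 6), and KRT31 the lowest, -0.39 ± 0.12 (adjusted p = 0.485, lower in 6 of 6). The methods' paired t-test called both at an unadjusted p under 0.01, where it called 1144 of all 15132 genes. After Benjamini-Hochberg adjustment it called 0 of the 9 keratins and only 9 of all genes.

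With butyrate present, KRT23 was lower in cells given doxycycline as well. In DoxyNaB/NaB it changed by -1.29 ± 0.47 (adjusted p = 2.35e-05, lower in 6 of 6), a 2.44-fold fall. It was the 1 keratin called lower, where 2.03% of all genes were, and none was called higher, where 0.694% were (KRT6A alone was higher at an unadjusted p under 0.05). At its second probe the change was -0.89 ± 0.80 (adjusted p = 0.0308, lower in 5 of 6). At the first probe it was -1.32 within experiments 2 to 4 and -1.11 within experiments 5 and 6, neither past the threshold there (adjusted p = 0.067 and 0.0474). Of all genes 412 passed in the main fit, and 34 and 2 in these subsets. The value was -0.70 with normexp, -1.53 with quantile normalization and -1.18 with median scaling, and the call was lost with all 3 (adjusted p = 0.139, 0.0897 and 0.0755), where 94, 420 and 38 of all genes passed. It was also lost with the block fitted on the arrays of both groups alone (adjusted p = 0.0119) and in the methods' paired t-test after Benjamini-Hochberg adjustment (0.0604). There 111 and 22 of all genes passed. KRT31 (-0.87 ± 0.48), KRT19 (-0.43 ± 0.28), KRT15 (-0.24 ± 0.13) and KRT6A (0.59 ± 0.35) had the same sign in 6 of 6 experiments and adjusted p = 0.0228, 0.0237, 0.0316 and 0.0303.

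**Figure D4:**
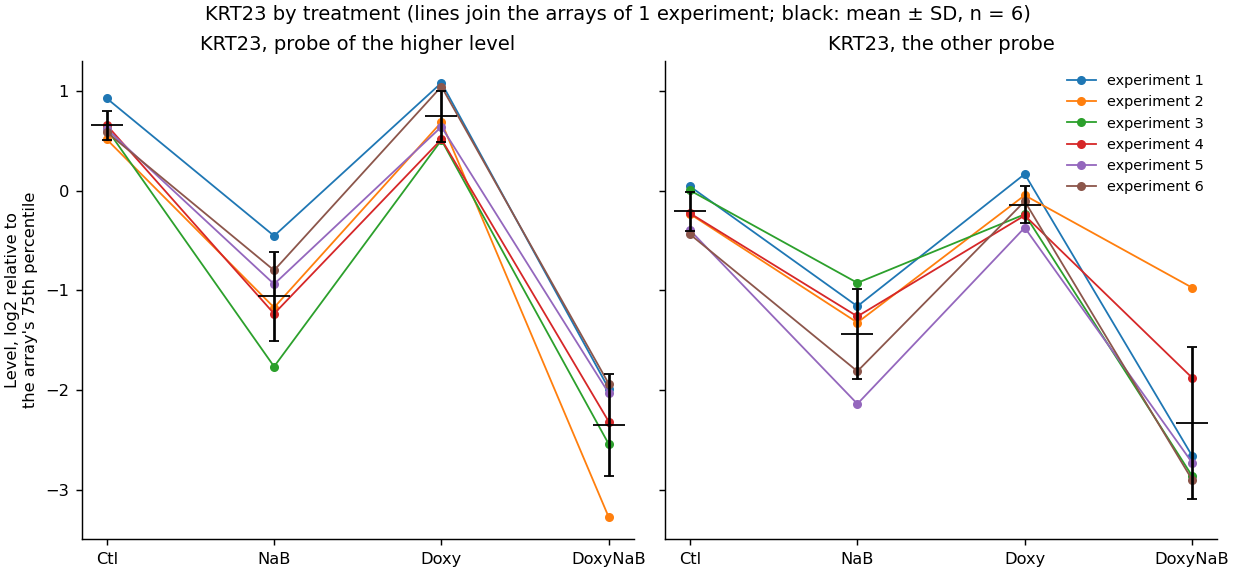
KRT23 level (y axis, log2 relative to the array's 75th percentile) by treatment (x axis) at its 2 probes, with a line for each experiment and black bars for the mean ± SD (n = 6). At the first probe all 6 lines end lower in DoxyNaB than in NaB cells, and at the other probe 5 of 6 do.

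Whether doxycycline altered the effect of butyrate was tested as the interaction, the NaB/Ctl change minus the DoxyNaB/Doxy change. KRT23 was the 1 keratin of 9 that passed, where 1.35% of all genes did. Its interaction was 1.38 ± 0.59 (adjusted p = 0.000913, above 0 in 6 of 6 experiments), that is, the fall was 2.60-fold larger with doxycycline. The value was 0.80 with normexp, 1.62 with quantile normalization and 1.19 with median scaling, and the call was lost with all 3 (adjusted p = 0.447, 0.395 and 0.983). Of all genes 205 passed in the main fit, and 37, 175 and 8 with these scalings. The KRT23 call was also lost without experiment 1 (1.32, adjusted p = 0.0117) and without the replicate block (adjusted p = 0.0187), where 133 and 71 of all genes passed. The value was 1.29 within experiments 2 to 4 and 1.35 within experiments 5 and 6 (adjusted p = 0.403 and 0.0965), where 5 and 0 of all genes passed. At the second probe the interaction was 0.96 ± 0.73 (adjusted p = 0.176, above 0 in 5 of 6), though with quantile normalization that probe passed (1.01, adjusted p = 0.0026).

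KRT80 came next, with an interaction of 0.78 ± 0.39 (adjusted p = 0.0262, above 0 in 6 of 6). Its level was the highest in Doxy cells (-1.04 ± 0.30, SD, n = 6), followed by NaB (-1.27 ± 0.35), DoxyNaB (-1.50 ± 0.37) and Ctl cells (-1.58 ± 0.44), and all neighbours in that order overlapped. For KRT8 and KRT18 the interaction was -0.01 ± 0.36 and -0.07 ± 0.12 (adjusted p = 0.982 and 0.809). For KRT19 it was 0.36 ± 0.30 (adjusted p = 0.323, above 0 in 5 of 6), which does not show that the changes were equal. The other 4 tested members had adjusted p between 0.374 and 0.972.

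The other keratins of the array were examined in the same way. Of 55 keratin genes on the array, 28 were tested, and with the 9 above included 5 were called higher and 4 lower in NaB/Ctl, against 20.9% and 11.5% of all genes. Of the 23 other type I keratins 10 were tested, and 2 were higher and 2 lower, with a median change of 0.05. KRT14 and KRT17, keratins of basal and of stressed stratified epithelium, rose by 2.77 ± 0.71 and 2.53 ± 0.60, and KRT222 fell by 1.004 ± 0.24 (adjusted p = 1.29e-08, 5.98e-08 and 6.26e-08). For KRT14 and for KRT17, 3 of 6 Ctl arrays and 6 of 6 NaB arrays measured the probe well above background. Of the 22 other type II keratins 9 were tested, and 2 were higher and none lower, with a median of 0.38. KRT72, of the hair root sheath, rose by 3.50 ± 0.47 and KRT86, of the hair shaft, by 2.51 ± 0.26 (adjusted p = 1.14e-09 and 6.87e-14). For KRT72, 2 of 6 Ctl arrays and 6 of 6 NaB arrays measured the probe well above background. KRT14, KRT17 and KRT72 thus passed the filter through the butyrate-treated cells, and their changes are against levels at or near background. All of these changed the same way in 6 of 6 experiments. None of the 19 passed in Doxy/Ctl, DoxyNaB/NaB or the interaction by limma, where 84, 412 and 205 of all 15132 genes did. An unadjusted limma p under 0.05 was found for 2, 1 and 2 of them. The share of all genes at that level is not given here. The methods' paired t-test after Benjamini-Hochberg adjustment called none of the 19 either. It called 9, 22 and 0 of all genes, so that it could have called few or none.

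**Figure D5:**
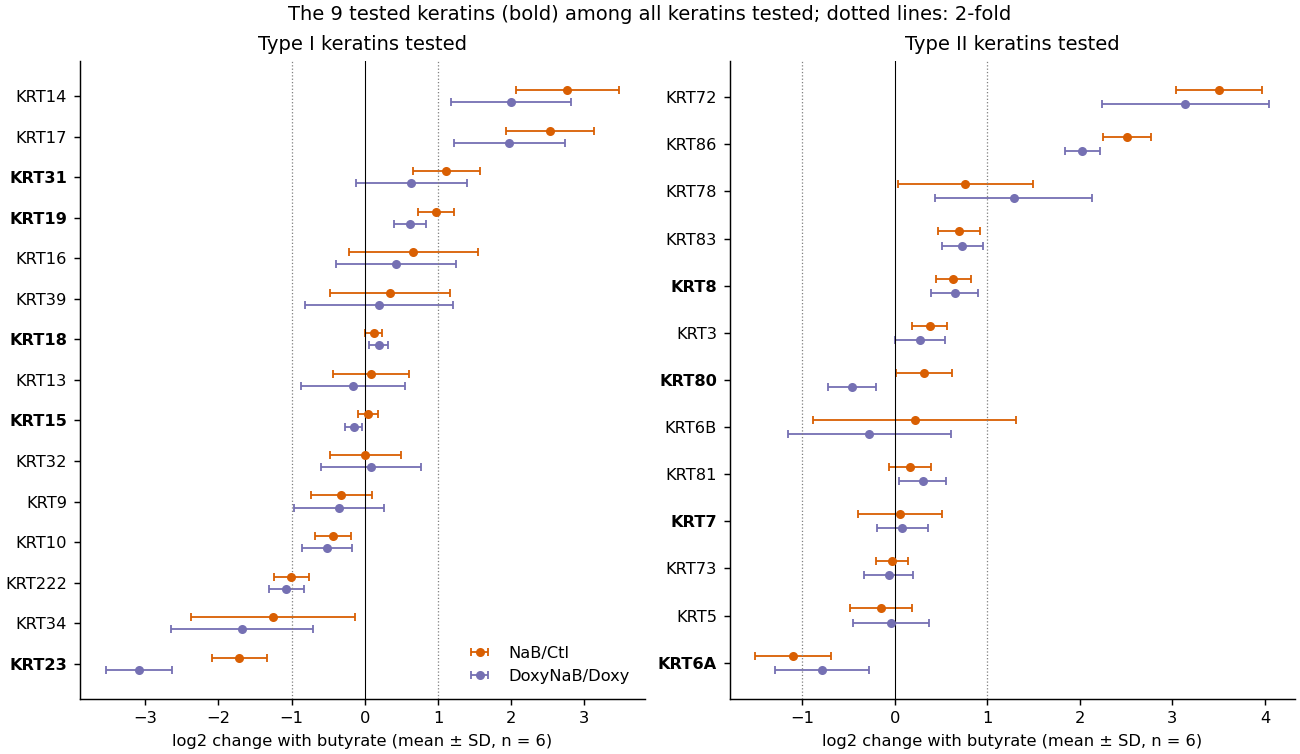
log2 change with butyrate (x axis, mean ± SD, n = 6) of the 28 tested keratins in NaB/Ctl (orange) and DoxyNaB/Doxy (purple), type I on the left and type II on the right, with the 9 described here in bold; dotted lines mark 2-fold. KRT23 has the lowest change of all 28 in both comparisons, and KRT72, KRT14, KRT17 and KRT86 have the highest in NaB/Ctl, the first 3 against Ctl levels at or near background.

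Of proteins that tie keratin filaments to junctions or organise them, 19 were examined. Of these 19 anchors on the array 17 were tested, and in NaB/Ctl 3 were higher and 6 lower, with a median of -0.68, against 20.9% and 11.5% of all genes and a median of 0.17. In DoxyNaB/Doxy 3 were higher and 7 lower, against 18.7% and 12.5% of all genes. EPPK1 (epiplakin, which binds keratins) rose by 4.24 ± 0.28, while ITGB4 (the integrin of hemidesmosomes) fell by 2.16 ± 0.18 and FAM83H (which acts on keratin organisation) fell by 2.07 ± 0.25 (adjusted p = 5.06e-15, 4.77e-13 and 7.54e-13). PPL (periplakin, of the cornified envelope and desmosomes) was the 1 anchor of 17 that passed the interaction, where 1.35% of all genes did. Its interaction was -0.71 ± 0.16 (adjusted p = 0.00173), and it rose by 1.498 ± 0.19 in NaB/Ctl and 2.20 ± 0.19 in DoxyNaB/Doxy. These PPL values are from the main fit alone. The methods' paired t-test after Benjamini-Hochberg adjustment called 0 of all genes in the interaction, and so not PPL.

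Intermediate filaments of other classes were also examined. Of 16 on the array 11 were tested, and 6 were higher and 2 lower in NaB/Ctl, with a median of 1.05, against 20.9% and 11.5% of all genes and a median of 0.17. BFSP2 (a lens filament protein) rose by 3.03 ± 0.74, DES (desmin, of muscle) rose by 2.10 ± 0.19 and LMNB1 (lamin B1, of the nuclear lamina) fell by 2.91 ± 0.40 (adjusted p = 2.97e-07, 1.41e-13 and 5.02e-13). For BFSP2, 1 of 6 Ctl arrays and 6 of 6 NaB arrays measured the probe well above background, so that its change is against levels at or near background. None of the 11 passed in Doxy/Ctl, DoxyNaB/NaB or the interaction by limma, where 84, 412 and 205 of all 15132 genes did. An unadjusted limma p under 0.05 was found for 1, 3 and 4 of them, and the share of all genes at that level is not given here. The methods' paired t-test after Benjamini-Hochberg adjustment called none of the 11 either, but it called only 9, 22 and 0 of all genes.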

How the data were processed

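RNA of 24 cultures (4 treatments in 6 experiments) was hybridised by the study's array provider to 1-colour Agilent whole human genome arrays. The authors deposited scanner output of Agilent Feature Extraction 9.5.3.1, whose processed signal is an intensity after background subtraction on a linear scale; the mean and background intensity and the quality flags came from the same deposited files. Spots flagged as outliers and control spots were left out, spots of one probe were averaged, and log2 of each signal was taken relative to the 75th percentile of its array. A probe was tested where some treatment had it well above background in each of its 6 arrays (18979 of 34127), and a gene was counted by its probe of the highest mean level. limma 3.58.1 (R 4.3.3) was fitted to all tested probes with the experiment number as a block, and p-values were adjusted by Benjamini-Hochberg over all of them. NaB/Ctl and DoxyNaB/Doxy calls needed a fold over 2 and an adjusted p under 0.01, the other comparisons the latter alone. The methods name a paired t-test, kept as an alternative.

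The experiment numbers of the labels pair the arrays: the study calls the 6 experiments biological replicates, and deviations from the group means correlated by 0.22 to 0.85 in 35 of 36 pairs of arrays of one experiment (-0.22 in the other). Slides held 1 experiment each, apart from experiment 1, whose arrays with and without butyrate lay on separate slides of different scan dates. In it alone, slide and scan date cannot be told apart from butyrate. Experiments 2 to 4 and 5 to 6 shared a scan date each. The number of arrays limits the precision. The fit was tested on simulated data.

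The genes named are all 10 keratins with every probe, TCF7L2 and AXIN2, and, of the lists of other type I and type II keratins, keratin anchors and other intermediate filaments, every gene passing the interaction and up to 3 called genes with the largest NaB/Ctl change that moved the same way in all 6 experiments. The members and lists were chosen with earlier results of these data known. Python 3.11.15 with scipy 1.17.1 was used for the permutation tests.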

Additional observations from a re-analysis of the deposited data

Results flagged for a closer look

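Of the 40 sets of 6 levels (10 keratins under 4 treatments), 2 held a level far from the other 5 by Dixon's criterion, about the number that chance gives at 1 in 20. The KRT7 level of NaB cells was 2.05 in experiment 1 and between 0.64 and 1.11 in the others. The KRT23 level of Ctl cells was 0.92 in experiment 1 and between 0.51 and 0.66 in the others.

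The butyrate change of KRT23 differed between cells with and without doxycycline (interaction 1.38, adjusted p = 0.000913 in limma), with a larger fall when doxycycline was present. PPL, which rose with butyrate, had an interaction of the other sign (-0.71, limma adjusted p = 0.00173), with a larger rise when doxycycline was present.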

How the results depend on the processing

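Of 45 keratin changes (9 keratins in 5 comparisons) under up to 20 alternatives, 832 of 876 values kept their side of the threshold with no call turned in sign, 22 called values lost the call, 21 gained one and 1 reversed, KRT31 in NaB/Ctl with quantile normalization (-0.11). The number of keratins called moved as follows. In NaB/Ctl it was 3 and became 0 with the filter on all 24 arrays, which leaves out KRT23, KRT6A and KRT31, and 5 at a fold over 1.5 (KRT8 and KRT19 added); it was 2 with normexp (KRT19 and KRT23), with quantile normalization and median scaling (KRT23 and KRT6A) and within experiments 2 to 4 (KRT23 and KRT31), and 4 with no filter (KRT20 added) and without the 2 bright arrays (KRT19 added). Within experiments 5 and 6 it was 3, with KRT19 in place of KRT31. In DoxyNaB/Doxy it was 1 and became 0 with that filter, 2 with quantile normalization, within experiments 2 to 4 and within experiments 5 and 6, 3 with median scaling and 4 at a fold over 1.5. In Doxy/Ctl it was 0 and became 2 with the methods' t-test unadjusted, and 1 (KRT80) without the 2 arrays of bright negative controls and at an adjusted p under 0.05. In DoxyNaB/NaB it was 1 and became 0 with normexp, median scaling, the filter on all 24 arrays, the replicate block fitted on the arrays of both groups alone, the adjusted t-test, experiments 2 to 4 and experiments 5 and 6; it became 2 (KRT31 added) with slide as block and without the 2 bright arrays, 4 with the unadjusted t-test and 5 at an adjusted p under 0.05. With quantile normalization it stayed at 1, but KRT19 in place of KRT23. In the interaction it was 1 and became 0 with normexp, quantile normalization, median scaling, no replicate block, the filter on all 24 arrays, the adjusted t-test, experiments 2 to 4 and experiments 5 and 6, and 2 (KRT80 added) with the unadjusted t-test and at an adjusted p under 0.05. With 1 experiment left out the numbers ran from 2 to 4 in NaB/Ctl, where KRT6A was lost without experiment 5 and KRT31 without experiment 2 and KRT19 gained without experiments 2 and 3, were 1 throughout in DoxyNaB/Doxy and 0 throughout in Doxy/Ctl, ran from 1 to 2 in DoxyNaB/NaB and from 0 to 1 in the interaction, lost without experiment 1. The fit with no replicate block changed no other call. The genes called higher, of all called, were 105 of 412 in DoxyNaB/NaB and 168 of 205 in the interaction, and 16 of 38 and 1 of 8 with median scaling. In these comparisons 94 and 37 of all genes were called with normexp and 34 and 5 within experiments 2 to 4. Within experiments 5 and 6 they were 2 and 0, and with the adjusted t-test 22 and 0. Where so few genes are called, a lost call is not particular to the keratin. The unadjusted t-test called 1144 genes in Doxy/Ctl, 867 in DoxyNaB/NaB and 712 in the interaction. Dim probes limit KRT6A, KRT20 and KRT31 most. The causes were not tested.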

Other observations

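Among the marker lists examined for cell identity, 7 epithelial, 2 intestinal, 1 fibroblast, 2 leukocyte and 1 squamous gene were tested. Of these, 2 genes passed the same interaction test, where 1.35% of all genes did. SBSN, a suprabasal protein of stratified epithelium, rose by 3.42 ± 0.52 in NaB/Ctl and by 4.82 ± 0.36 in DoxyNaB/Doxy (SD, 6 experiments; interaction -1.40, limma adjusted p = 0.0019, below 0 in 6 of 6 experiments). ELF3, an epithelial transcription factor, rose by 0.21 ± 0.18 and by 0.93 ± 0.16 (interaction -0.72, adjusted p = 0.000192, below 0 in 6 of 6). Both were named after their values were seen, and both are given from the main fit alone. With the methods' t-test after Benjamini-Hochberg adjustment 0 of all genes passed the interaction, and with median scaling 8 did. KRT23, which fell with butyrate, has a positive interaction, and its change too was larger with doxycycline.

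The epithelial adhesion genes did not move as one group. EPCAM fell by 1.45 ± 0.40 in NaB/Ctl (adjusted p = 3.62e-05) and fell in DoxyNaB/Doxy as well (adjusted p = 2.64e-05). In both comparisons 5 experiments gave an EPCAM value, all 5 were lower, and the SD is over these 5. CDH1, E-cadherin, rose instead, by 0.99 ± 0.20 and 0.87 ± 0.28 (adjusted p = 1.04e-07 and 5.64e-07), short of 2-fold. Both genes were chosen after their values were seen.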
